A study of Homo sapiens with 9 samples.

Results

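The mitochondrial ribosomal protein genes were followed in HCT116, a colorectal carcinoma cell line of human origin, in which A20 (TNFAIP3, a ubiquitin-editing enzyme that restrains NF-κB signaling) had been manipulated. Members were the protein-coding rows of the deposited table whose symbol is MRPL or MRPS followed by a number, with an ending letter allowed. The rule found 78 genes, 49 MRPL and 29 MRPS, among 58735 rows of which 19951 were protein-coding, and it left out 77 other rows with such names, 75 of them pseudogenes. RNA-seq was done on 9 libraries, 3 of each group: untargeted wild-type cells (WT), cells whose A20 gene was targeted with a CRISPR guide (A20-KO), and A20-KO cells with A20 put back from an overexpression construct (A20-OE in the labels, the rescue cells of the study). The WT cells carry neither change, and the A20-OE cells carry both. The labels do not say whether the 3 libraries of a group were separate cultures or clones, so that p-values measure only the spread between these libraries, which may be technical.

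Mitochondria keep their own ribosome, built from RNA encoded in mitochondrial DNA and from proteins encoded in the nucleus, translated in the cytosol and imported. It makes the few membrane subunits of the respiratory chain and of ATP synthase that the mitochondrial genome encodes. Some of its proteins have bacterial counterparts, and others were added in mitochondria. Genes named MRPL or MRPS code for proteins of the large or the small subunit, with exceptions: the MRPS18A and MRPS30 proteins sit in the large subunit, and the MRPS36 protein is now counted as a component of the alpha-ketoglutarate dehydrogenase complex.

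The 78 genes lie on 21 chromosomes. Their promoters are shown here because binding letters for NRF1, ETS factors such as GABPA, and YY1, known regulators of nuclear genes for mitochondria, are a feature that the choice of members by symbol did not use. RefSeq promoters (GRCh38.p14, from 250 bases before to 50 after the start) were found for 69 of the genes, in 85 windows. On either strand, AAGATGGCG (the core of a YY1 site) was present in 13 windows (15.3%), against 2.48% of all promoter windows of protein-coding genes. CCGGAAGTG (ETS) was present in 7 windows of 5 genes (8.24%), against 3.10%, and GCGCATGCG (NRF1) in 3 windows (3.53%), against 2.36%. At least 1 of these 3 was present in 24.7% of the windows, against 7.49%, and no match of these 3 in a member overlapped one of another. Among 3 more motifs searched, CACGTG (the E-box) was present in 10.6% of the windows against 8.40%, TGACGTCA (CREB) in 1.18% against 2.24%, and GGGCGG (SP1) in 60% against 57.0%. A match of letters is a description of the window and not evidence of binding. The stretches below are written 5′ to 3′ on the strand of the gene, with the match in capitals. They are of some members whose values are described later (MRPL3, MRPL47, MRPL42, MRPL46, MRPL52) and of 3 further members that were lower in a comparison (MRPS22, MRPS10, MRPS18B). Among matches not shown are those of MRPL38, MRPS24 and MRPL27 and all NRF1 matches. Also left out are YY1 matches of members that passed in no comparison (MRPL22, MRPL32, MRPL36, MRPL50 and MRPS18A). The stretches shown are thus not a sample of all matches.
MRPL3, ETS, chr3:131502985-131503013, minus strand: gtaaaacgcaCCGGAAGTGggtccggcgg
MRPL47, ETS, chr3:179604659-179604687, minus strand: gcttgagacgCCGGAAGTGacgctatcgt
MRPS22, ETS in reverse, chr3:139343987-139344015, plus strand: ccctcccaacCACTTCCGGcgcaagtggc
MRPL42, YY1, chr12:93467512-93467540, plus strand: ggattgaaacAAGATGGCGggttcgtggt
MRPL46, YY1, chr15:88467362-88467390, minus strand: gggagaacgaAAGATGGCGgcgcccgtaa
MRPS10, YY1, chr6:42217834-42217862, minus strand: cgggaccggcAAGATGGCGgcgcggacag
MRPS18B, YY1, chr6:30617853-30617881, plus strand: ggcgtacgtcAAGATGGCGgcgtctgtat
MRPL52, YY1, first match, chr14:22829779-22829807, plus strand: acgatgacccAAGATGGCGgagccgtgat
MRPL52, YY1, second match, chr14:22829813-22829841, plus strand: acccagattcAAGATGGCGacttcctgct
The ETS letters of MRPL3 and MRPL47 began 32 and 31 bases before the start. In MRPL42 and MRPL46 the YY1 letters began 8 bases after it, and in MRPL52 both matches lay before it, at 98 and 64 bases. The YY1 letters contain ATG, and whether a match is also the start of translation was not tested.

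Values were FPKM (fragment counts divided by the gene's exonic length and by a depth per library), a scale per length on which genes can be compared. Recovered reads were between 0.950 and 1.07 of the depth that the FPKM imply, so that depth was not the plain read total. Median-of-ratios factors of the FPKM were 1 in every library, a scaling that holds the median gene level between libraries. Medians near 0 over all genes follow from that scaling of the FPKM values. Whole reads could be recovered from them, between 23406222 and 24963691 per library. The targeted gene went against its label: TNFAIP3 was at 0.869, 0.800 and 0.736 FPKM in the WT libraries, at 1.93, 2.16 and 1.04 in those labelled A20-KO and at 58.7, 66.5 and 56.5 in those labelled A20-OE. The A20-KO label was thus not matched by lower mRNA (log2 fold change 0.95 against WT, adjusted p = 0.0182), although this call of a higher level was lost with only the 2 groups compared and without WT replicate 2 or A20-KO replicate 1 or 2, with adjusted p from 0.0505 to 0.0674. An edit made with a guide can leave the mRNA in place, so this level does not by itself check the label, and directions given here are those of the labelled groups. Of 8 colon epithelial markers 6 passed the filter on low values, with EPCAM at a mean of 117 FPKM and KRT8 at 483, while CDX1 and VIL1 were near 0. Of 9 markers of other cell types 7 stayed under the filter; CD14 was at a mean of 0.199 FPKM. These were mean values over all 9 libraries. COL1A1, of the fibroblast list, was at group means of 5.32 FPKM in WT, 13.3 in A20-KO and 11.7 in A20-OE and was higher than WT in both, but the other fibroblast markers COL1A2 and DCN were near 0. Reads of the mitochondrial genome made up between 7.52% and 10.1% of all reads in WT, between 9.18% and 11.9% in A20-KO, and between 11.97% and 13.95% in A20-OE, and their part in the results was not tested.

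WT replicate 1 stood apart within the family. The 11 members of 60% GC or more had a median deviation of −0.24 from their gene means on the log2(FPKM + 0.1) scale in that library, against 0.29 and 0.49 in WT replicates 2 and 3, while the 13 members under 40% GC had 0.47 there, against 0.22 and 0.12. The high-GC members also spread more within groups, with a median SD of 0.30 log2 units against 0.18 for the low-GC members and 0.19 over all members. Over the 77 members tested, GC content and this SD had a Pearson correlation of 0.54, a description across genes that share the same libraries. Replicate 3 had the highest value of its group for 64 of 77 members in A20-KO and for 66 in A20-OE, and for 44 in WT. The labels give no batch to which these could be tied.

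**Figure D1:**
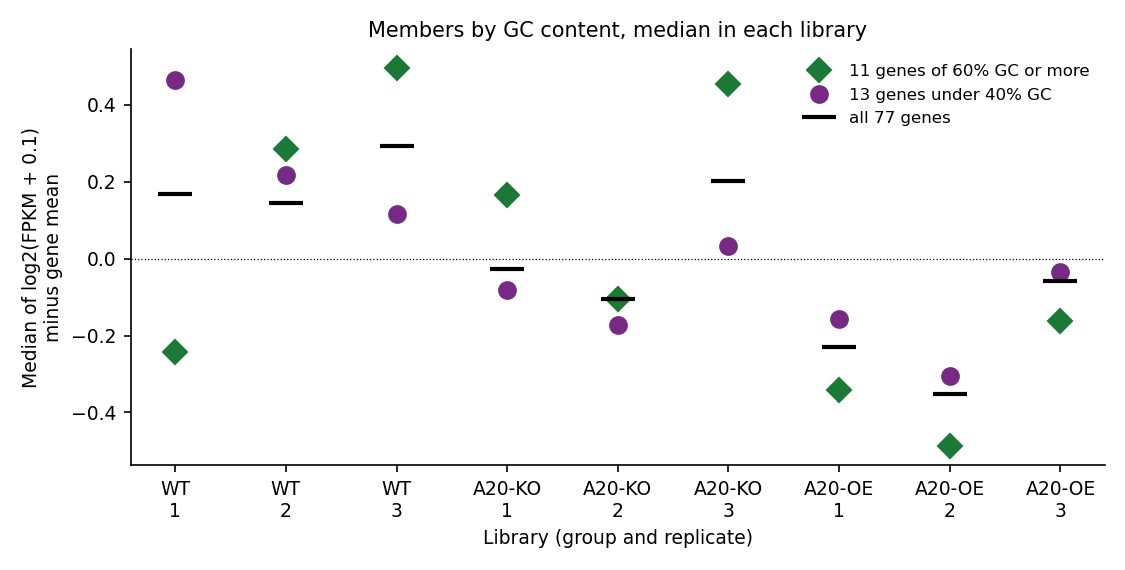
Median over members of log2(FPKM + 0.1) minus the gene's mean over the 9 libraries, in log2 units (y axis), for each library (x axis), for 11 members of 60% GC or more (diamonds), 13 members under 40% GC (circles) and all 77 tested (bars). WT replicate 1 is the only WT library with the high-GC members under the low-GC members, at −0.24 against 0.47.

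Most of the family was well expressed. The median of the mean level over 9 libraries was 17.0 FPKM over the 78 members, against 4.97 FPKM over the protein-coding genes that passed the filter on low values (a mean of at least 0.1 FPKM), and 56 members were at 10 FPKM or more. MRPS34, a small-subunit protein particular to mitochondria, was highest at a mean of 116.6 FPKM. Its libraries ran 85.3, 137.5 and 176.0 in WT, 121.4, 104.9 and 153.6 in A20-KO, and 94.8, 80.4 and 95.9 in A20-OE, so that all groups overlapped except A20-OE below A20-KO. MRPS26 followed at 51.6 FPKM and MRPL41 at 50.4, and these neighbours did not differ beyond their spread between libraries.

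At the low end stood MRPS24, MRPL46 and MRPL38. MRPS24, the counterpart of a bacterial protein at the mRNA entry of the small subunit, had a mean of 0.0639 FPKM, from 1 to 9 reads a library, and was the 1 member that did not pass the filter. It shares 23.2% of its exonic bases with the read-through gene URGCP-MRPS24 on the same strand, which had 0 to 2 reads a library, and how reads over both genes were counted is not given in the sources used here. MRPL46 was at 0.896, 0.703 and 0.833 FPKM in WT, 0.569, 0.658 and 0.694 in A20-KO, and 0.525, 0.514 and 0.602 in A20-OE. MRPL38 was between 1.62 and 2.49 FPKM in all 9 libraries, and 37.5% of its exonic bases are shared with another gene on its strand. In all, 37 members shared no exonic base with another gene, 16 shared some on the same strand and 29 some on the opposite strand, and the strand setting of the counting is not given in the sources used here.

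As a sum the family was largest in WT and smallest in A20-OE. Summed FPKM was 1734, 1766 and 1995 in WT, 1588, 1453 and 1876 in A20-KO, and 1367, 1225 and 1491 in A20-OE. WT and A20-KO overlapped through A20-KO replicate 3, and so did A20-KO and A20-OE through A20-OE replicate 3, whereas every A20-OE library was below every WT library. The means were 1832 ± 143 in WT, 1639 ± 216 in A20-KO and 1361 ± 133 in A20-OE (SD, n = 3). As a share of recovered reads the family took 0.432%, 0.426% and 0.453% in WT, 0.372%, 0.349% and 0.407% in A20-KO, and 0.318%, 0.297% and 0.326% in A20-OE, with no overlap between groups. Set against the nuclear reads alone, the shares were 0.479% ± 0.012, 0.420% ± 0.038 and 0.359% ± 0.021 in that order (SD, n = 3). In such bulk samples fewer cells expressing a gene and less RNA per cell cannot be told apart.

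**Figure D2:**
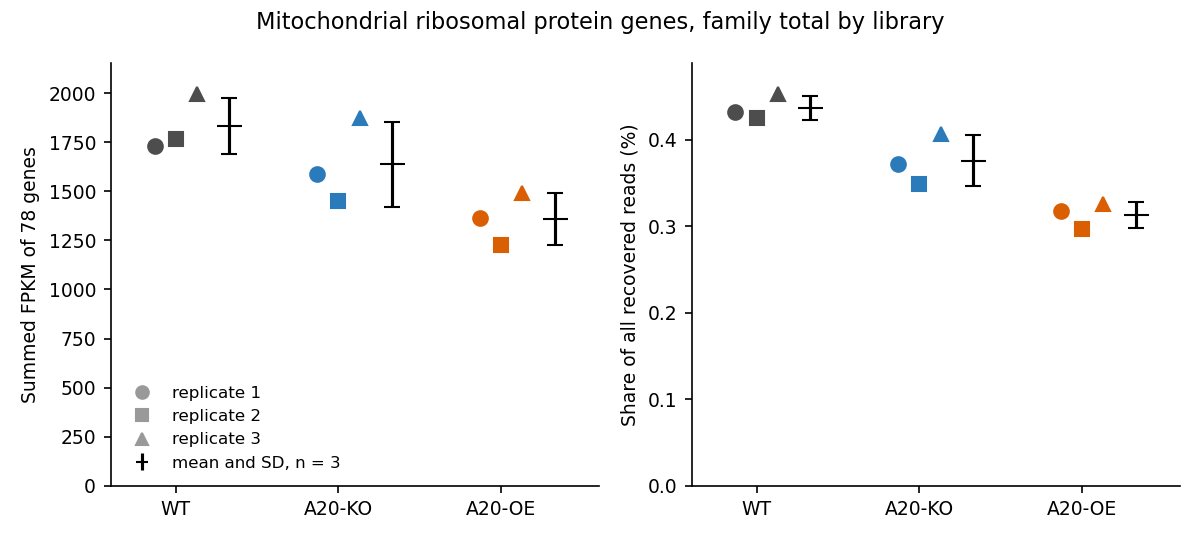
Summed FPKM of the 78 genes (left) and their share of all recovered reads in % (right) for each library of WT, A20-KO and A20-OE, with marker shape for the replicate number and the group mean and SD (n = 3) beside the points. A20-OE lies lowest on both axes, from 1225 to 1491 FPKM and from 0.297% to 0.326% of reads.

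For the test of single genes, limma was fitted to log2(FPKM + 0.1) of all 21636 genes that passed the filter, and calls were made where the adjusted p (Benjamini-Hochberg) was under 0.05, without and then with the 2-fold threshold of the study. All fold changes are on that log2 scale, which understates changes of low genes. The 3 comparisons share libraries, and the change from WT to A20-OE is the sum of the other two, so their values stand side by side here and are not independent of each other. Of the 77 members tested, 40 passed in no comparison (51.9%, against 61.8% of all genes tested), 17 were lower in A20-OE against WT and passed in no other comparison (22.1%, against 5.38%), and 43 had group means that fell from WT to A20-KO to A20-OE (55.8%, against 21.7%). Among genes of at least 1 FPKM these shares were 44.7%, 19.7% and 55.3% of 76 members, against 43.8%, 6.84% and 27.2% of such genes.

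**Figure D3:**
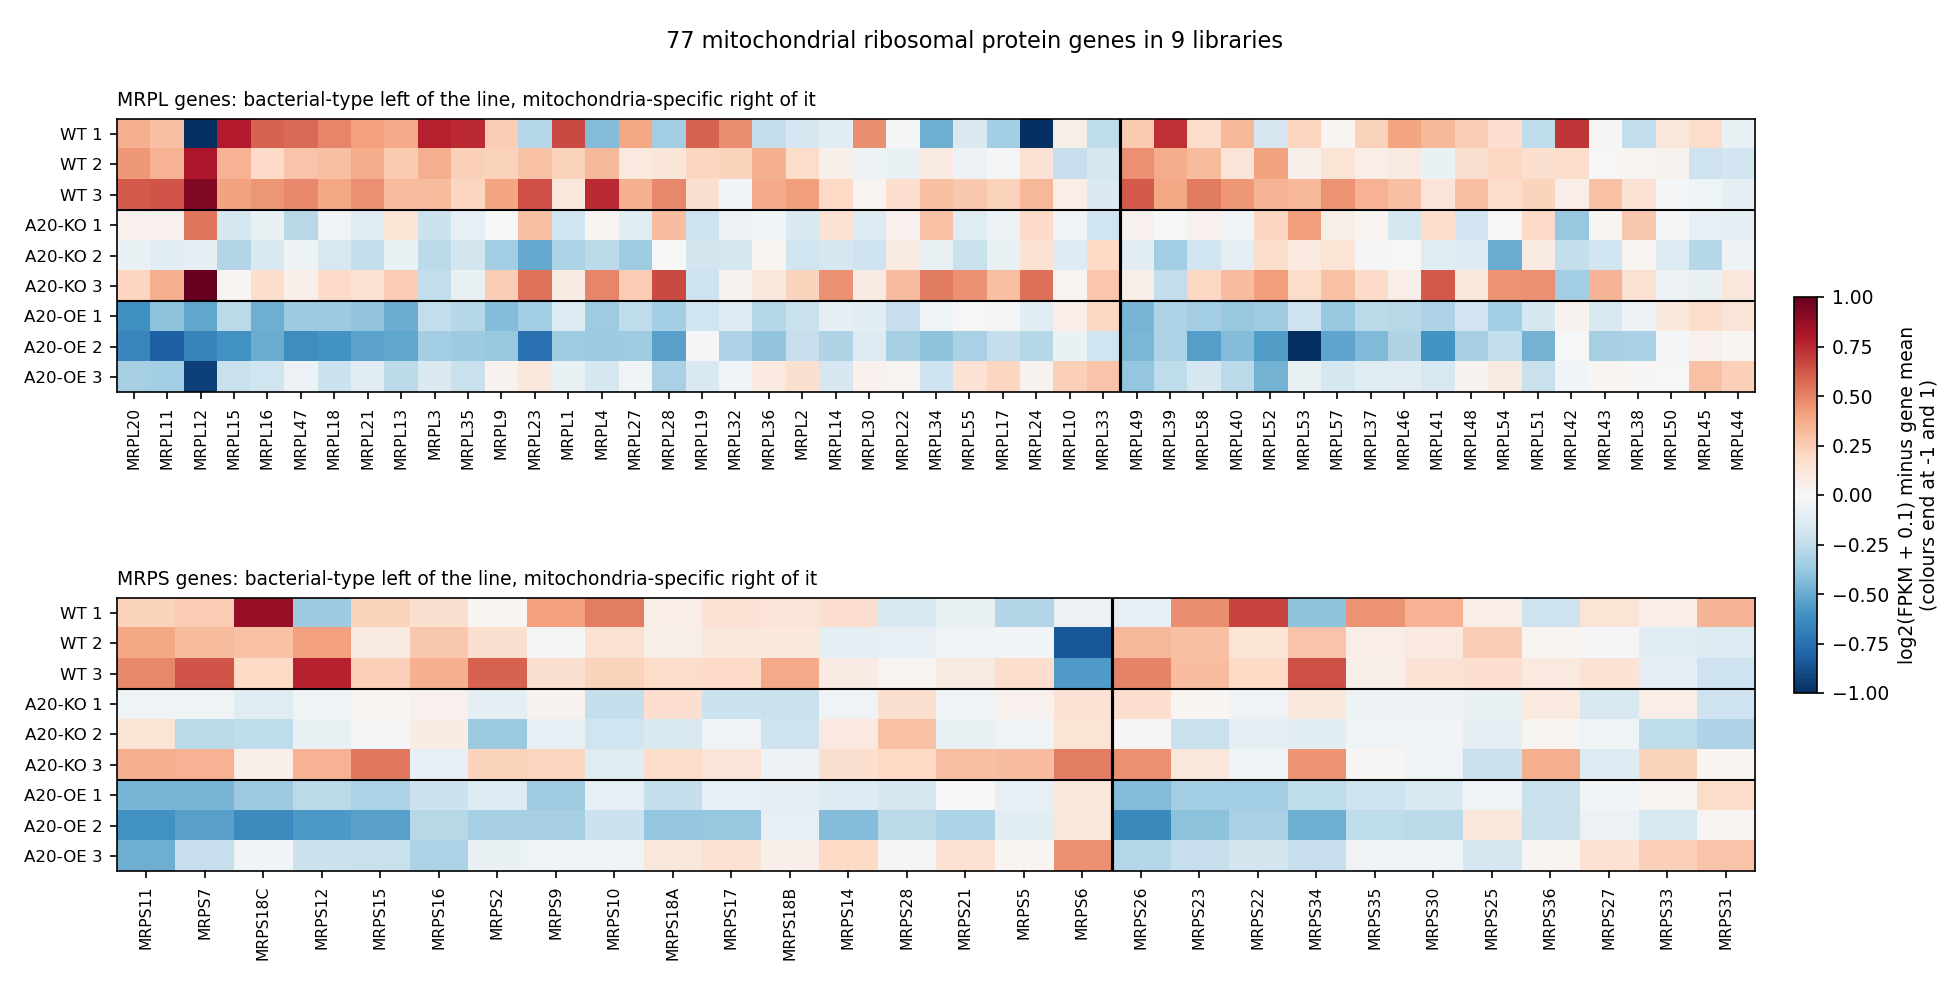
Log2(FPKM + 0.1) minus the gene's mean over 9 libraries (colour, ending at −1 and 1) for 77 members (columns, MRPL above and MRPS below, sorted by the log2 fold change of A20-OE against WT within a class) in the 9 libraries (rows). The A20-OE rows are mostly blue and the WT rows mostly red, and MRPS6 has the opposite colours, with log2 fold changes of 0.76 and 0.72 against WT.

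The first comparison, A20-KO against WT, asks what targeting A20 did. Here 13 of 77 members were lower (16.9%, against 11.0% of all genes tested) and 1 was higher (against 11.3%). Among genes of at least 1 FPKM, where most members lie, 16 of 76 members were lower, 21.1% against 19.1% of such genes, so the family was near its background. All 3 A20-KO libraries lay below all WT libraries for 26 members (33.8%, against 18.9%). The median member log2 fold change was −0.19, from −0.72 to 0.76, against −0.01 over all genes. Among genes of at least 1 FPKM it was −0.19 for members, against −0.04. The share of genes without overlap was not counted among such genes in any comparison. No member passed the 2-fold threshold, by limma or by limma-voom, against 6.99% of all genes. The count of lower members fell to 3 without A20-KO replicate 1, to 6 without A20-KO replicate 2 and to 7 without A20-OE replicate 1, which entered the shared spread. Without WT replicate 1 it was 11, with a median of −0.20. Of all genes tested, 7.03% were lower without A20-KO replicate 1, 8.84% without A20-KO replicate 2 and 8.93% without A20-OE replicate 1. Without WT replicate 1 that share was 9.93%. With 3 or 6 lower members of 77 the family was thus not above all genes.

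Of those 13 members 10 were among the 49 MRPL genes (20.4%, near the 19.1% of genes of at least 1 FPKM) and 3 among the 28 MRPS genes tested (10.7%), and the difference between the 2 sets was not tested. The 10 were 7 of 30 MRPL genes with bacterial counterparts and 3 of 19 particular to mitochondria. MRPL3 (chromosome 3, 131462212 to 131502983, minus strand), whose bacterial counterpart lies by the peptidyl transferase centre, was at 73.0, 54.8 and 52.9 FPKM in WT, 36.7, 35.6 and 35.9 in A20-KO, and 35.9, 33.3 and 38.5 in A20-OE. WT was above both other groups, which overlapped. Its log2 fold change from WT to A20-KO was −0.72 (SE 0.13, adjusted p = 0.00443), and from A20-KO to A20-OE it was −0.01 (adjusted p = 0.981).

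MRPL39 (chromosome 21, 25585656 to 25607517, minus strand), a large-subunit protein related to threonyl-tRNA synthetases, was at 24.02, 18.7 and 18.9 FPKM in WT, 14.4, 11.3 and 12.2 in A20-KO, and 11.6, 11.6 and 12.1 in A20-OE. It fell by 0.69 on the log2 scale from WT to A20-KO (adjusted p = 0.00508), and again WT alone stood above the other groups. MRPL15, the counterpart of a bacterial large-subunit protein, was at 44.9, 32.9 and 34.1 FPKM in WT, 22.8, 21.0 and 26.2 in A20-KO, and 21.4, 16.9 and 22.03 in A20-OE, a log2 fold change of −0.66 from WT to A20-KO (adjusted p = 0.0148). For MRPL15 the call was lost without A20-KO replicate 1, at an adjusted p of 0.0521. The calls of MRPL3 and MRPL39 held in all 22 alternatives.

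MRPL47 (chromosome 3, 179588285 to 179604654, minus strand), which sits near the exit of the peptide tunnel, was at 37.7, 31.0 and 35.6 FPKM in WT, 21.0, 24.6 and 26.3 in A20-KO, and 19.7, 16.5 and 24.4 in A20-OE. Its log2 fold change from WT to A20-KO was −0.54 (adjusted p = 0.0353), a call lost under a GC correction (adjusted p = 0.267) and without WT replicate 1 or 3, A20-KO replicate 1 or 2 or A20-OE replicate 1. MRPL42 (chromosome 12, 93467488 to 93516213, plus strand), particular to mitochondria, had its A20-OE libraries above those of A20-KO. It was at 10.7, 7.32 and 6.75 FPKM in WT, 4.94, 5.46 and 5.06 in A20-KO, and 6.62, 6.44 and 6.33 in A20-OE. It fell by 0.64 on the log2 scale from WT to A20-KO (adjusted p = 0.0195), a call lost without A20-KO replicate 1 or 3. From A20-KO to A20-OE it changed by 0.32 (adjusted p = 0.241).

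MRPS6, the counterpart of a bacterial small-subunit protein, was the 1 member that was higher. It stood at 7.28, 4.16 and 5.09 FPKM in WT, 8.39, 8.34 and 10.9 in A20-KO, and 8.20, 8.23 and 10.5 in A20-OE, so that WT lay below both other groups. Its log2 fold change was 0.76 from WT to A20-KO (SE 0.20, adjusted p = 0.0285) and 0.72 from WT to A20-OE (adjusted p = 0.0257). Leaving out WT replicate 2 or 3, or A20-KO replicate 1 or 3 in the first and A20-OE replicate 1 or 3 in the second comparison, ended these calls, with adjusted p up to 0.0938 and 0.0899. MRPS6 (chromosome 21, 34073224 to 34143034, plus strand) shares 9.61% of its exonic bases with AP000317.2 and SLC5A3, a gene for an inositol transporter inside it. SLC5A3 was at 4.10, 3.91 and 3.79 FPKM in WT, 6.46, 6.38 and 4.23 in A20-KO, and 5.95, 7.19 and 4.78 in A20-OE. Both genes were thus lowest in WT, and the part of shared reads in this was not tested.

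**Figure D4:**
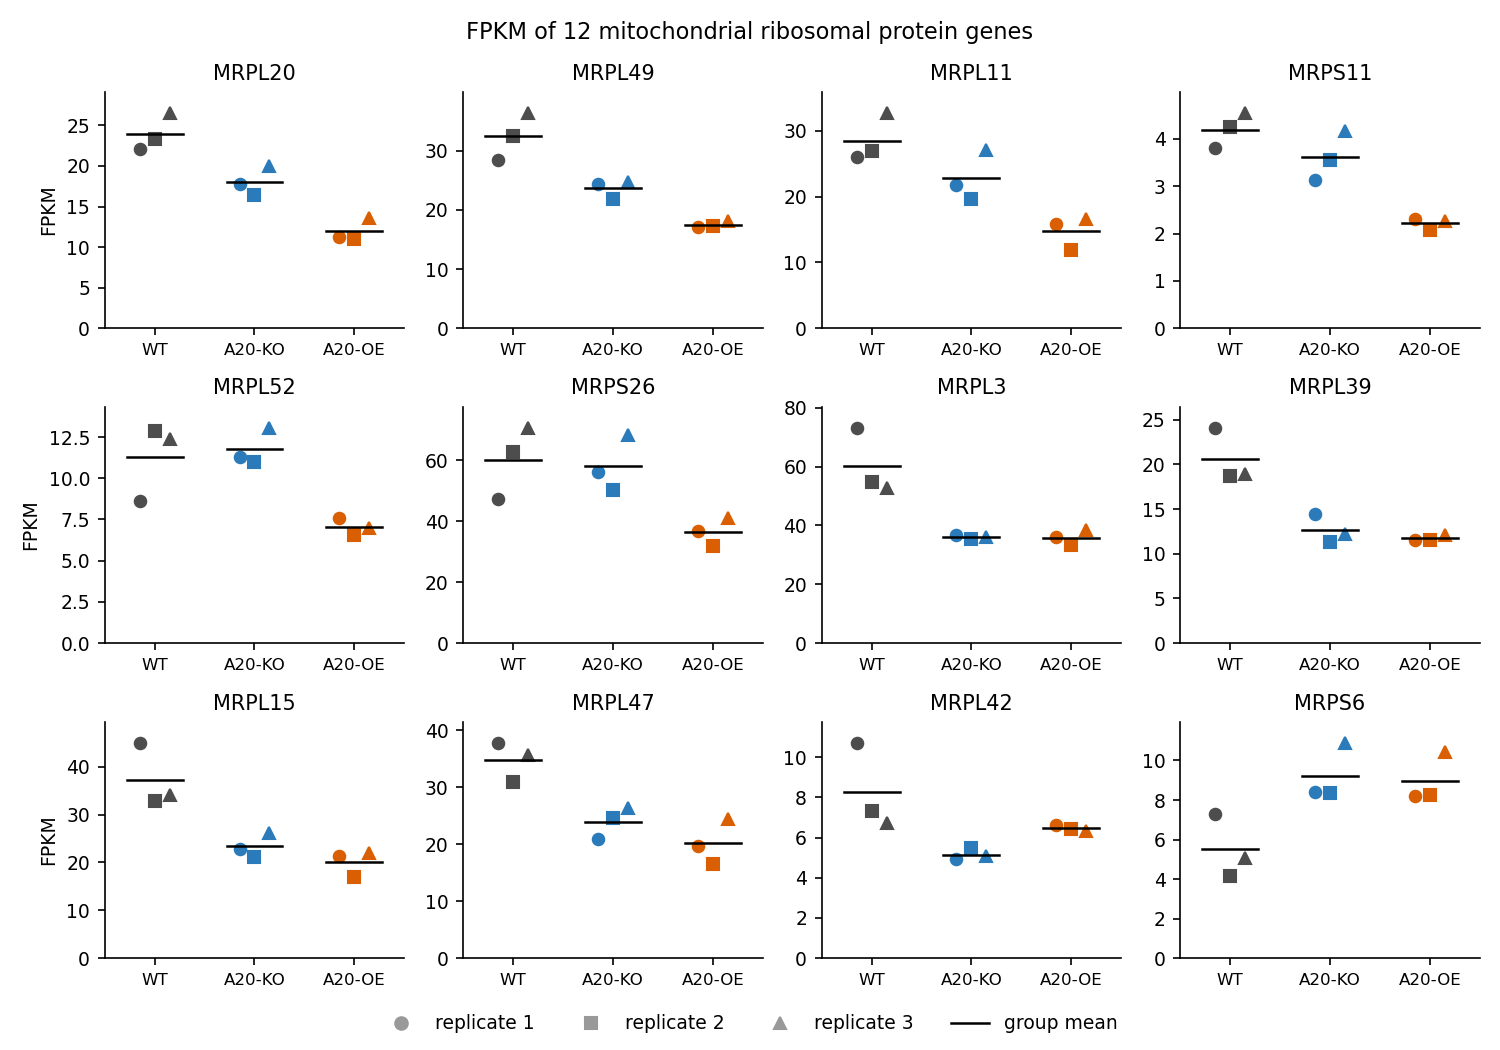
FPKM (y axis, from 0) of 12 members in each library of WT, A20-KO and A20-OE, with marker shape for the replicate and a line at the group mean. MRPL20 and MRPL49 step down from group to group, MRPL3 and MRPL39 are high in WT alone, MRPL52 and MRPS26 are low in A20-OE alone, and MRPS6 is low in WT.

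The second comparison, A20-OE against A20-KO, asks what putting A20 back did. Of 77 members 8 were lower (10.4%, against 4.54% of all genes tested) and 0 were higher (against 4.43%), the latter by limma and also by limma-voom. At an unadjusted p under 0.05 by limma, 1 of 77 members was higher, against 12.6% of all genes. Among genes of at least 1 FPKM 12 of 76 members were lower, 15.8% against 8.78%. The A20-OE libraries all lay below the A20-KO libraries for 29 members (37.7%, against 18.0%), and the median member log2 fold change was −0.23, against 0.01 over all genes. Among genes of at least 1 FPKM that median was −0.23 for members, against −0.03. No member passed the 2-fold threshold with either tool, against 2.39% of all genes. This count rested on few libraries. It was 13 without WT replicate 1, 4 without WT replicate 2, 1, 4 and 1 without A20-KO replicates 1, 2 and 3, and 0, 0 and 2 without A20-OE replicates 1, 2 and 3. The share of all genes that was lower also moved, from 4.54% to 8.44% without WT replicate 1 and 2.64% without WT replicate 2. It was 1.14%, 2.77% and 1.99% without A20-KO replicates 1, 2 and 3. Without A20-OE replicates 1, 2 and 3 it was 1.0%, 1.12% and 2.19%. The median over members kept its sign in each of these, between −0.34 and −0.14, but leaving out a WT library cannot change it.

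MRPL20 and MRPL49 were the members that passed in both steps. MRPL20 (chromosome 1, 1401908 to 1407313, minus strand), whose bacterial counterpart binds ribosomal RNA early in assembly of the large subunit, was at 22.1, 23.3 and 26.5 FPKM in WT, 17.8, 16.5 and 20.02 in A20-KO, and 11.3, 10.9 and 13.6 in A20-OE. No group overlapped another. Its log2 fold change was −0.40 from WT to A20-KO (SE 0.12, adjusted p = 0.0429) and −0.60 from A20-KO to A20-OE (adjusted p = 0.0213).

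MRPL49 (chromosome 11, 65122183 to 65127371, plus strand), a large-subunit protein particular to mitochondria, was at 28.5, 32.6 and 36.3 FPKM in WT, 24.4, 21.9 and 24.7 in A20-KO, and 17.2, 17.3 and 18.1 in A20-OE. Its groups did not overlap either, with log2 fold changes of −0.45 (adjusted p = 0.0154) and −0.43 (adjusted p = 0.0378) in the 2 steps. Some of its exonic bases, 12.2%, lie opposite FAU and SYVN1. In the first step the call of MRPL20 ended without WT replicate 2 or 3, A20-KO replicate 1 or 2 or A20-OE replicate 1 or 2, and that of MRPL49 without WT replicate 2 or A20-KO replicate 2, with adjusted p up to 0.124 and 0.0535. With only the 2 groups compared both calls also ended, at 0.0724 and 0.0560. In the second step the call of MRPL20 ended without A20-KO replicate 1 or 3 or A20-OE replicate 1 or 2, and that of MRPL49 without WT replicate 2 or any A20-KO or A20-OE library, with adjusted p up to 0.0937 and 0.132.

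MRPL52, a large-subunit protein particular to mitochondria, had the largest fall among members called in this comparison. It was at 8.65, 12.9 and 12.4 FPKM in WT, 11.3, 10.98 and 13.02 in A20-KO, and 7.58, 6.59 and 6.98 in A20-OE, with A20-OE below both other groups, which overlapped. Its log2 fold change from A20-KO was −0.73 (SE 0.15, adjusted p = 0.0238), lost without A20-KO replicate 1 or 3 or any A20-OE library, at up to 0.0943.

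MRPS11 (chromosome 15, 88467453 to 88480773, plus strand), the counterpart of a bacterial protein of the small-subunit platform, was at 3.803, 4.24 and 4.54 FPKM in WT, 3.12, 3.56 and 4.17 in A20-KO, and 2.30, 2.08 and 2.27 in A20-OE. From A20-KO it fell by 0.67 on the log2 scale (adjusted p = 0.0184), a call lost without any A20-OE library, at up to 0.0781. MRPS26, among the highest members, was at 47.2, 62.8 and 70.4 FPKM in WT, 56.0, 50.2 and 68.4 in A20-KO, and 36.9, 31.8 and 40.9 in A20-OE. Here A20-OE alone was low, and the log2 fold change was −0.67 (adjusted p = 0.0472). MRPL11 (chromosome 11, 66435075 to 66466738, minus strand), part of the base of the stalk that translation factors contact, was at 26.0, 26.9 and 32.6 FPKM in WT, 21.7, 19.6 and 27.2 in A20-KO, and 15.9, 11.9 and 16.6 in A20-OE. It passed narrowly, at −0.62 (adjusted p = 0.0498). The calls of MRPS26 and MRPL11 ended without WT replicate 2 or any A20-KO or A20-OE library, with adjusted p up to 0.164 and 0.162.

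MRPL12, which recruits translation factors to the ribosome, had the lowest log2 fold change of the family in this comparison, −1.19, without passing (SE 0.49, adjusted p = 0.169), and is named here after its values were seen. It was at 10.3, 38.3 and 41.6 FPKM in WT, 31.6, 20.3 and 44.4 in A20-KO, and 15.2, 13.7 and 11.4 in A20-OE. WT replicate 1 lay below all A20-OE libraries. The median of the 11 members of 60% GC or more was also low in that library. Of those members all but MRPL41 had their lowest WT value there, and MRPL41, at 71.95% GC, had its highest. The part of GC content in this was not tested. MRPL12 shares 68.2% of its exonic bases with AC139530.2 on the same strand, which was listed at 0 in every library.

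**Figure D5:**
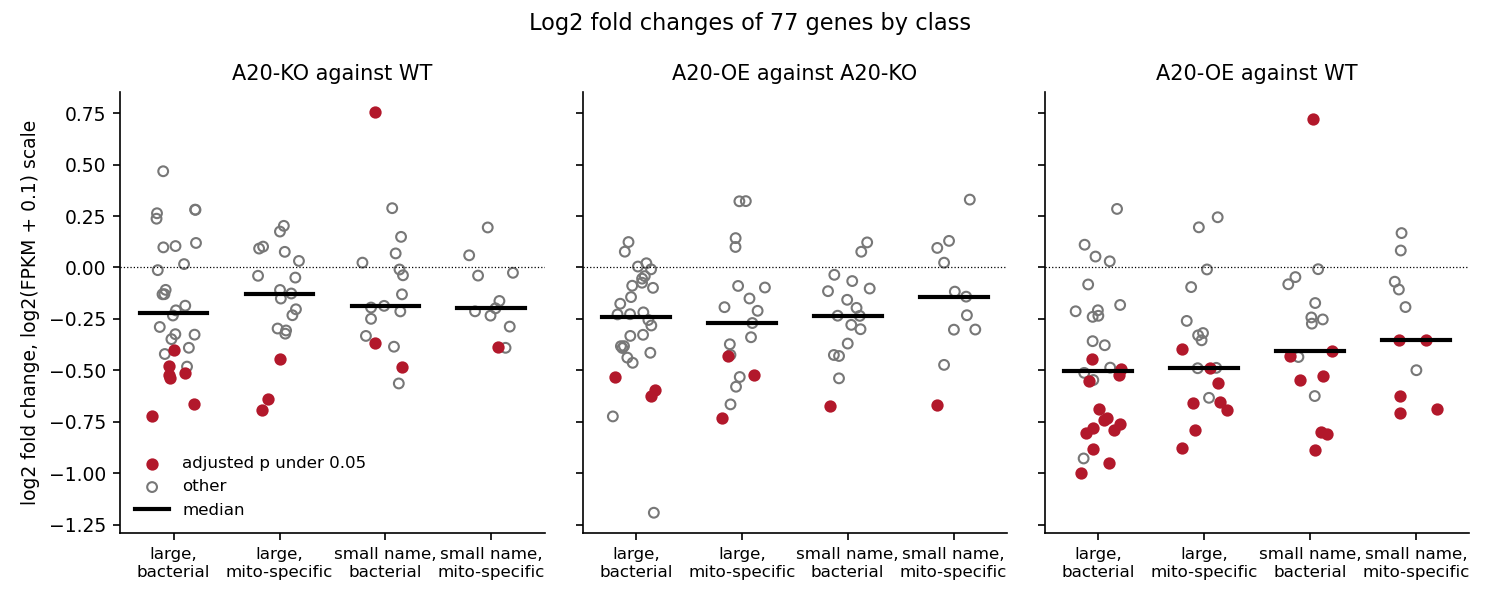
Log2 fold changes on the log2(FPKM + 0.1) scale (y axis) of 77 members in the 3 comparisons (panels), by class (x axis), with filled points for an adjusted p under 0.05 and a bar at the class median. The 4 class medians of A20-OE against WT lie between −0.50 and −0.35, and the filled point above 0 is MRPS6.

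The third comparison, A20-OE against WT, held most of the calls. Here 34 of 77 members were lower (44.2%, against 15.4% of all genes tested) and 1, MRPS6, was higher (against 15.7%). Among genes of at least 1 FPKM 36 of 76 members were lower, 47.4% against 25.1%. All A20-OE libraries lay below all WT libraries for 42 members (54.5%, against 21.8%). The median member log2 fold change was −0.44, against 0.03 over all genes. Among genes of at least 1 FPKM it was −0.43 for members, against −0.05. Of 77 members 68 were below 0, and the share of all genes below 0 was not counted. The count was 22 without A20-OE replicate 2 and between 23 and 34 without any other library, and 34 without WT replicate 1. The lower share of all genes was 12.1% without A20-OE replicate 2 and between 11.2% and 16.2% without any other library. Of the 35 calls, 21 held in all 22 alternatives and every one kept its direction, which some alternatives cannot change by design. In A20-KO against WT 2 of 14 calls held in all 22, and in A20-OE against A20-KO 0 of 8.

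All 4 classes held lower members. These were 14 of 30 MRPL genes with bacterial counterparts (median log2 fold change −0.50), 8 of 19 MRPL genes particular to mitochondria (−0.49), 7 of 17 MRPS genes with bacterial counterparts (−0.41) and 5 of 11 MRPS genes particular to mitochondria (−0.35). The difference between classes was not tested. MRPL20 passed the 2-fold threshold, at −1.00002 (SE 0.12, adjusted p = 0.000382), as 1 of 77 members against 11.9% of all genes. It passed that fold in 18 of 22 alternatives, in a range from −1.10 to −0.93, and by limma-voom the count was also 1. Among the 18 are settings that cannot change this value, such as no variance trend or leaving out an A20-KO library. Those settings only repeat a value that barely passed. MRPL11 followed at −0.95 (adjusted p = 0.00252), MRPS11 at −0.89 (adjusted p = 0.00113), MRPL15 at −0.88 (adjusted p = 0.00247) and MRPL49 at −0.88 (adjusted p = 0.000343). None of these 5 lost its call in an alternative, nor did MRPL3 at −0.73, MRPL39 at −0.79, MRPL47 at −0.79 and MRPL52 at −0.65, whereas MRPS26 at −0.71 (adjusted p = 0.0137) did without A20-OE replicate 2 (adjusted p = 0.0535).

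Of the members with promoter letters, 4 of 5 with ETS letters were lower in A20-OE against WT (median log2 fold change −0.62), as were 3 of 12 tested with YY1 letters (−0.34) and 1 of 3 with NRF1 letters (−0.21). Beside these stand 34 of 77 in the family as a whole and, of genes of at least 1 FPKM, 25.1%, close to the 3 of 12 with YY1 letters. These are counts of few genes, without a test of the difference. In A20-KO against WT 2 of the 5 with ETS letters, 3 of the 12 with YY1 letters and 0 of the 3 with NRF1 letters were lower, and in A20-OE against A20-KO 0, 1 and 0. The ETS genes that were lower were MRPL3, MRPL47, MRPS22 and MRPL27, and MRPL38 was not, at −0.10.

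A start within 1000 bases of a divergent neighbour was found for 21 members, for 17 of them next to a protein-coding gene. Of 15 such neighbours outside the family 13 were tested, and 6 of these were lower and 1 higher in A20-OE against WT, where 15.4% of all genes tested and 25.1% of those of at least 1 FPKM were lower. In A20-KO against WT 3 of the 13 neighbours were lower and 1 higher (11.0% and 11.3% of all genes). Of genes of at least 1 FPKM 19.1% were lower in that comparison. In A20-OE against A20-KO 3 of the 13 were lower (4.54% of all genes, 8.78% of those of at least 1 FPKM). The pairs described next were chosen after their values were seen, and no difference within a pair was tested. MRPS11 and MRPL46, head to head at 34 bases, share a promoter region, and their log2 fold changes of A20-OE against WT were −0.89 and −0.49 (adjusted p = 0.00113 and 0.0676). MRPL47 starts 36 bases from NDUFB5, a gene for a subunit of respiratory complex I. NDUFB5 stood at 10.5, 7.95 and 9.13 FPKM in WT, 9.41, 8.13 and 10.04 in A20-KO, and 10.3, 9.01 and 10.5 in A20-OE. Its groups overlapped, and its log2 fold change of A20-OE against WT was 0.11 (adjusted p = 0.569), beside −0.79 for MRPL47. MRPL57 starts 43 bases from SKA3, a gene of the spindle and kinetochore complex, and the 2 had −0.56 (adjusted p = 0.0129) and −2.07 (adjusted p = 6.752e-05). Other pairs in which both genes were lower were MRPL18 with TCP1, a subunit of the cytosolic chaperonin (−0.78 and −0.62, adjusted p = 0.00182 and 0.00167), MRPL27 with EME1, a subunit of a DNA structure-specific endonuclease (−0.49 and −1.10, adjusted p = 0.0454 and 7.46e-05), and MRPL21 with IGHMBP2, a helicase (−0.76 and −0.61, adjusted p = 0.00257 and 0.0170).

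Proteins of the mitochondrial ribosome that carry other symbols were read beside the family. DAP3, a small-subunit protein, was between 23.5 and 28.6 FPKM in all 9 libraries, with log2 fold changes of −0.06, −0.01 and −0.06 in the 3 comparisons in the order above. GADD45GIP1, of the large subunit, was at 52.4, 52.3 and 67.9 FPKM in WT, 36.3, 34.2 and 51.6 in A20-KO, and 32.02, 27.0 and 35.9 in A20-OE, and was lower in A20-OE against WT (−0.86, adjusted p = 0.00663). PTCD3, of the small subunit, was lower than WT in A20-KO (−0.50, adjusted p = 0.0215) and in A20-OE (−0.42, adjusted p = 0.0328), the first call lost without A20-KO replicate 3 and the second without any of WT replicates 1 and 2, A20-KO replicate 1 and the A20-OE libraries. CHCHD1 and AURKAIP1 passed in no comparison, at −0.25 and −0.63 from A20-KO to A20-OE. AURKAIP1 was at 34.97 FPKM in WT replicate 1, against 68.3 and 87.1 in the other two WT libraries.

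The ribosomal RNAs were read from the mitochondrial genome. MT-RNR1, the 12S RNA of the small subunit, was at 1370, 1433 and 1747 FPKM in WT, 3781, 4287 and 5625 in A20-KO, and 1711, 1507 and 2046 in A20-OE, with A20-KO above both other groups. Its log2 fold change was 1.58 from WT to A20-KO (SE 0.22, adjusted p = 0.00169) and −1.37 from A20-KO to A20-OE (adjusted p = 0.00957), the second lost without A20-OE replicate 1 (adjusted p = 0.0513) and with no filter on low values (adjusted p = 0.101). MT-RNR2, the 16S RNA, was at 5271, 4406 and 3721 FPKM in WT, 5592, 7064 and 7689 in A20-KO, and 6336, 6114 and 7370 in A20-OE, with log2 fold changes of 0.60, −0.03 and 0.57 that did not pass. These libraries were selected on poly-A, so the values are of the rRNA captured in that way.

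Genes that build or use the mitochondrial ribosome were counted from lists put together with the family. In the 3 comparisons in the order above, 11.0%, 4.54% and 15.4% of all genes tested were lower and 11.3%, 4.43% and 15.7% higher, and of genes of at least 1 FPKM 19.1%, 8.78% and 25.1% were lower. Of 27 assembly factors 8 were lower in A20-KO (29.6%), 2 lower (7.41%, near the background) and 1 higher in A20-OE against A20-KO, and 13 lower (48.1%) and 1 higher in A20-OE against WT. The lowest in A20-OE against WT were MRM1, a methyltransferase of 16S RNA (−1.27, adjusted p = 0.00143), and MTERF3 (−1.17, adjusted p = 0.000897), and the 1 higher was NOA1, a GTPase (0.73, adjusted p = 0.000691). FASTKD2, which binds 16S RNA, was the lowest in A20-KO against WT (−0.99, adjusted p = 0.00228), followed by MTERF3 (−0.70). In A20-OE against A20-KO the calls were MPV17L2 (−0.92, adjusted p = 0.00908), MALSU1 (−0.69, adjusted p = 0.00923) and NOA1 (0.42, adjusted p = 0.0357).

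Of 15 translation factors 5 were lower (33.3%) and 1 higher in A20-KO, 1 lower (6.67%) in A20-OE against A20-KO, and 5 lower (33.3%) and 2 higher in A20-OE against WT. The second share is within the background given above, and the third is 5 genes beside a background of 25.1%. GFM1, the elongation factor that moves the ribosome along, was lower than WT in A20-KO (−1.01, adjusted p = 0.00411) and in A20-OE (−0.996, adjusted p = 0.0025), and GUF1 was lower in A20-KO (−0.75). TSFM, which recycles the factor that delivers tRNA, passed in all 3 comparisons, at −0.41, −0.46 and −0.87, the first 2 with an adjusted p up to 0.110 and 0.165 on leaving out single libraries. PDF, a peptide deformylase, was lower in A20-OE against WT (−0.88). MTIF3, an initiation factor, and C6orf203 were higher in that comparison (0.77 and 0.38). C6orf203 was also higher in A20-KO (0.46).

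Mitochondrial aminoacyl-tRNA synthetases and related enzymes numbered 20, of which 6 were lower (30.0%) and 1 higher in A20-KO, 1 lower (5.0%, near the background) in A20-OE against A20-KO and 9 lower (45.0%) in A20-OE against WT. QRSL1 was lower in A20-OE against WT (−0.98, adjusted p = 0.000385), and in A20-KO against WT MARS2 was lower (−0.73) and TARS2 higher (0.47). LARS2 was the call in A20-OE against A20-KO (−0.38, adjusted p = 0.0463). All 7 genes of mitochondrial transcription and RNA handling had a log2 fold change below 0 in A20-KO against WT, and 5 passed. Among them were TFAM, which packages mitochondrial DNA (−0.62, adjusted p = 0.00527), and LRPPRC, which binds mitochondrial mRNA (−0.66, adjusted p = 0.00930). The calls of SLIRP and TEFM in that comparison were lost in 6 and 14 of 22 alternatives. POLRMT and MTERF1 did not pass, and their libraries overlapped between these groups. In A20-OE against WT 5 of 7 were lower, SLIRP (−0.92) and TEFM (−0.78) the most. Among 8 nuclear regulators tested 2 were lower than WT in A20-KO and in A20-OE (25%). This was near the background of genes of at least 1 FPKM, 19.1% and 25.1%. The 2 were PPRC1, a coactivator (−0.95 in A20-KO, adjusted p = 0.00019), and NRF1 (−0.44 in A20-KO, adjusted p = 0.0271). None of the 8 passed in A20-OE against A20-KO. Among the genes named from these lists, the following calls were each lost without at least 1 library, with an adjusted p up to 0.16. In A20-KO against WT they were those of GUF1, MTERF3, C6orf203, TARS2, NRF1, SLIRP and TEFM. In A20-OE against A20-KO they were those of NOA1 and LARS2, and in A20-OE against WT those of C6orf203, PDF, MTIF3 and NRF1.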

How the data were processed

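Poly-A RNA-seq of 9 HCT116 libraries (3 WT, 3 A20-KO, 3 A20-OE) was used. Per the submitters' processing notes the authors used HISAT2 2.0.5 and featureCounts 1.5.0-p3, and they deposited FPKM per gene. Coordinates matched GENCODE 29 on GRCh38 for all 58735 genes. Whole reads recovered from FPKM and gene length came out whole (within 0.05) for 100% of values above 0.

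Groups came from the labels. FPKM are not counts, so limma 3.58.1 (R 4.3.3) was run on log2(FPKM + 0.1) with a variance trend, for genes whose FPKM averaged 0.1 or more, group being the only term and Benjamini-Hochberg adjustment over all 21636 genes; the script was tested on simulated data. An exact permutation test of 3 against 3 libraries cannot give p under 0.1. Members and gene lists were chosen with earlier results of these data known. Members named were the 5 largest rises and falls per comparison at adjusted p under 0.05 with no overlap of libraries, those passing in both A20-KO against WT and A20-OE against A20-KO or past 2-fold, the 3 highest and 3 lowest, and those not tested. From the lists, all other ribosomal proteins and rRNAs were named, and of the rest the 2 largest rises and falls per comparison at that threshold. A gene that this rule names is not reported here.

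The alternatives were other pseudocounts, filters and scalings, fits of 2 groups, with a replicate block or without the trend, limma-voom on recovered reads, length and GC corrections (50 bins), and leaving out each library. Replicate numbers were not used to pair the libraries, except in the fit with a replicate block.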

Additional observations from a re-analysis of the deposited data

How the results depend on the processing

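The median log2 fold changes of the mitochondrial ribosomal protein genes kept their sign under all 22 alternatives and moved by less than the spread between libraries. Some alternatives could not move them by design. These were the fit of 2 groups, the replicate block, no variance trend, scaling factors of 1 and leaving out a library of a group not compared. The counts moved more. Members lower in A20-KO against WT numbered 7 with only the 2 groups compared, 7 with no variance trend, 20 with the gene length correction and 20 with the replicate block, and between 3 and 15 on leaving out single libraries. Of all genes tested, 7.22%, 9.11%, 11.8% and 13.1% were lower in these settings in that order, and 7.03% to 10.8% on leaving out single libraries. Members lower in A20-OE against A20-KO numbered 4 without the filter on low values, 1 with no variance trend, 15 with total-reads scaling (added after seeing the data, since median-of-ratios factors were 1 in every library), 15 with the GC content correction and 17 with the replicate block, and between 0 and 13 on leaving out single libraries. The all-gene shares were 1.65%, 2.45%, 6.53%, 8.52% and 6.22% in that order, and 1.0% to 8.44% on leaving out single libraries. Members lower in A20-OE against WT stayed between 28 and 41 under all settings with all libraries, 38 with the replicate block, and were 22 to 34 on leaving out single libraries. The all-gene shares were 8.48% to 25.1%, 17.0% and 11.2% to 16.2% in that order. Members higher in A20-KO against WT numbered 0 without the filter on low values, 0 with only the 2 groups compared, 0 with no variance trend and 2 with the GC content correction, and 0 to 1 on leaving out single libraries. Members higher in A20-OE against A20-KO numbered 1 with only the 2 groups compared and 0 to 1 on leaving out single libraries, and those higher in A20-OE against WT 2 with the GC content correction, 2 with the replicate block and 0 to 1 on leaving out single libraries. The cause was not tested. Over all genes tested, same-numbered libraries deviated together with correlations from −0.027 to 0.121, against −0.131 to 0.0722 for libraries of different numbers. Within the family, replicate 3 was highest in its group for 44, 64 and 66 of 77 members in WT, A20-KO and A20-OE. The labels do not say whether a number marks a shared step, and this was not tested. AURKAIP1 turned from 0.13 in A20-KO against WT to −0.46 (adjusted p = 0.0221) under the GC content correction. Of the values of single named genes under these alternatives, 2753 kept their direction and side of the threshold, 50 changed sign without passing before or after, 215 no longer passed and 80 newly passed. Depth limits MRPS24, with 1 to 9 reads a library, whereas the other members named had at least 79 reads in every library.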
